A study of Mus musculus with 12 samples.

Results

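The genes described here act in, or regulate, the making of new fatty acids from citrate and acetate in liver. Their transcripts were compared between livers that received an adenovirus for human apolipoprotein F (hApoF) and livers that received one for green fluorescent protein (GFP). The set was given by name and comprised 10 genes of 22180 tested: Acss2, Slc25a1, Acly, Acaca, Acacb, Fasn, Scd1, Me1, Thrsp and Mlxipl. A gene entered through the probe sets that the platform annotation ties to its symbol and to no other, and each of the 10 genes had 1 such probe set, which is therefore also its brightest. All 10 entered the test, and dim probe sets were kept.

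Both groups consisted of livers of male C57BL6/J mice aged 8 to 10 weeks, kept at 22 °C with 12 h of light and 12 h of dark. An Ad5 vector was injected into the tail vein, Ad-GFP in 6 samples (replicates 1 to 6) and Ad-hApoF in 6 samples (replicates 7 to 12). The livers were taken 4 days later, at 3 pm and after 6 h without food, so the lipogenic transcripts were read in a short fast. Every liver carried a virus, and livers without one were not analysed here. The labels used here give no viral dose, no promoter for the inserted gene and no statement that each array had its own animal. P-values therefore measure only sample-to-sample spread, which may be technical. The values are deposited log2 values per probe set, 1 array per sample, and the number of arrays limits the precision.

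Hepatic fatty acid synthesis starts from citrate that leaves the mitochondrion. ATP citrate lyase splits it into acetyl-CoA, acetyl-CoA carboxylase turns acetyl-CoA into malonyl-CoA, and fatty acid synthase builds palmitate from malonyl-CoA with NADPH as the reductant. The pathway is known in liver for its control by feeding: insulin acts through the sterol regulatory element binding protein SREBP-1c (gene Srebf1) and glucose through the carbohydrate response element binding protein ChREBP (gene Mlxipl).

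Of the 10 genes, 2 rose in hApoF livers, 0 fell and 8 did not pass the test (limma, Benjamini-Hochberg adjusted over all genes, threshold 0.05). Among all genes the same test called 6.91%, with 2.11% higher and 4.80% lower. The risers were Acss2, which makes acetyl-CoA from acetate in the cytosol and nucleus, and Acacb, the acetyl-CoA carboxylase of the mitochondrial surface. Fasn, Acly, Slc25a1 and Thrsp had changes between -0.02 and 0.12 on the log2 scale, with confidence intervals on both sides of 0. Before adjustment 5 of the 10 genes had a limma p under 0.05, 3 higher and 2 lower, against 21.3% of all genes. The median log2 change was 0.01 for the 10 genes and 0.03 for all genes.

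The promoter windows of the pair of genes that rose, and of Fasn, the synthase itself, which did not pass, are shown because these are the genes on which the comparison turns. They are RefSeq windows of 300 bases in GRCm38.p6, from 250 before to 50 after an annotated start, read 5′ to 3′ on the gene's strand. That start is not always the outer end of the gene. The Acss2 window spans the start of its gene (155518043), but the Acacb window lies inside its gene, which starts at 114146321. Inside their genes also lie the Fasn window (gene end 120825166, minus strand) and that of Acaca (window from 84195188, gene from 84129635). Capitals mark CCAAT boxes, the sequence bound by nuclear factor Y, on either strand (ATTGG is its reverse complement).
Acss2, chr2:155517793-155518092, plus strand: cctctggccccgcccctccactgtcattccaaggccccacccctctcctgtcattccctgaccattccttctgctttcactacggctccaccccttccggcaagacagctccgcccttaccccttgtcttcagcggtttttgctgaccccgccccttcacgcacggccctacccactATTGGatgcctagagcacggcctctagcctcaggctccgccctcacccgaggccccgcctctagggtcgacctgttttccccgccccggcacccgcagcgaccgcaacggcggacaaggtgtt
Acacb, chr5:114165268-114165567, plus strand: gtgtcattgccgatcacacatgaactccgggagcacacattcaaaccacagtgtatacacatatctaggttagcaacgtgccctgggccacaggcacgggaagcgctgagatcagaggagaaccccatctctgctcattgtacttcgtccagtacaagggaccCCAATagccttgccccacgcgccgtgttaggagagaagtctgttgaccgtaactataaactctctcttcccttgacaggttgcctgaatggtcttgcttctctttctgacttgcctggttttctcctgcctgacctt
Fasn, chr11:120824498-120824797, minus strand: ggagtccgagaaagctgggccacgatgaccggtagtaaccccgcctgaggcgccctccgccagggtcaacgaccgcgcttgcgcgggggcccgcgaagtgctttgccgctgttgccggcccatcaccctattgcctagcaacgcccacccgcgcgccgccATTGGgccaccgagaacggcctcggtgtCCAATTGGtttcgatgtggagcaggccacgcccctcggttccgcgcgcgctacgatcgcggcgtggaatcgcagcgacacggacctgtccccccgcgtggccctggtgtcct
The Acss2 window held 1 CCAAT box and 5 GC boxes (GGGCGG, either strand), the Acacb window 1 CCAAT box and 0 GC boxes, and the Fasn window 3 CCAAT boxes, of which a pair on opposite strands overlap. The table held windows for 9 of the 10 genes, 11 windows in all because Me1 and Mlxipl have several. A CCAAT box was present in 8 of these 11 and in 37.4% of all 32851 windows, and a GC box in 5 of 11 and in 35.7% of all. The sterol regulatory element letters TCACNCCAC, searched on both strands, occurred in 1 of the 11, a Mlxipl window, and in 1.242% of all windows. The palindromic E-box CACGTG occurred in 2 of the 11, those of Slc25a1 and Mlxipl, and in 7.15% of all. Each of these is a match of letters within the window and was not tested for binding.

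**Figure D1:**
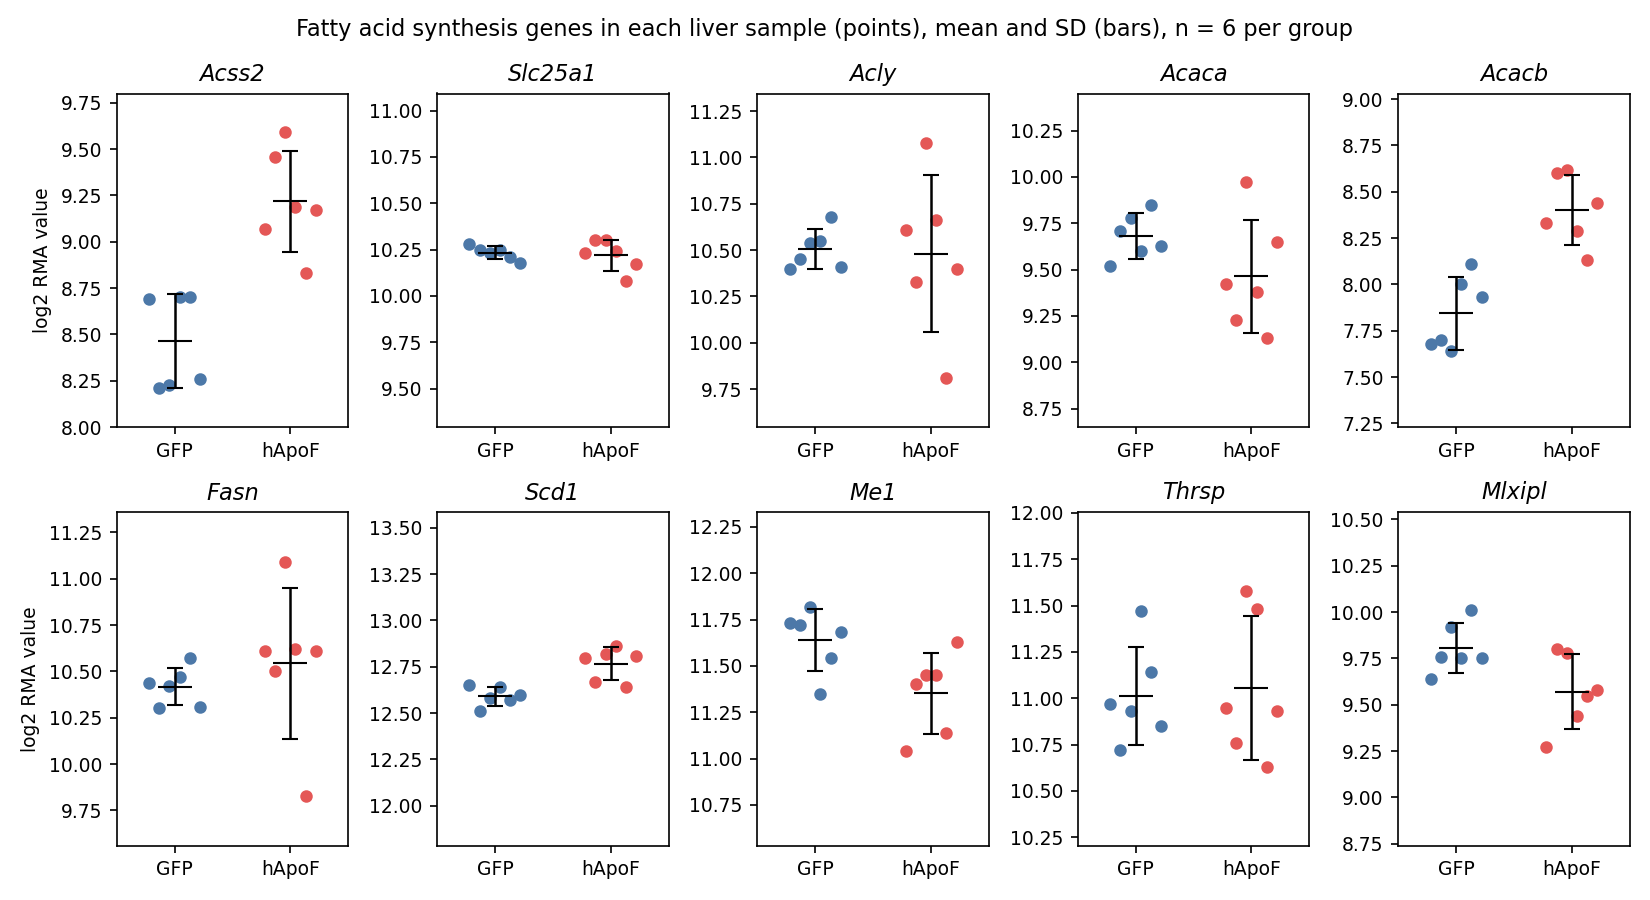
Log2 RMA value of each fatty acid synthesis gene (y axis, a span of 1.8 in every panel) in each of 6 GFP and 6 hApoF livers (points), with the mean and SD of the group (bars). The groups are separate for Acss2 and Acacb, and for Acly and Fasn 1 hApoF sample lies far above and 1 far below the rest.

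Acetyl-CoA for the pathway comes from acetate or from citrate. Acss2 had log2 values from 8.21 to 8.70 in GFP livers (median 8.48) and from 8.83 to 9.59 in hApoF livers (median 9.18). All 6 hApoF samples lay above the highest GFP sample, a separation between groups that 4.98% of all genes showed. The mean was 8.47 ± 0.25 (SD, n = 6) with GFP and 9.22 ± 0.27 (n = 6) with hApoF, a 1.68-fold rise (log2 change 0.75, SE 0.13, limma adjusted p = 0.0029). The exact permutation p was 0.0022, the smallest that 6 against 6 samples can give. The GFP samples fell at 8.69 to 8.70 in replicates 1, 4 and 5 and at 8.21 to 8.26 in replicates 2, 3 and 6.

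Citrate is exported by the mitochondrial carrier Slc25a1 and split by Acly. Slc25a1 varied little, at 10.18 to 10.28 in GFP livers (median 10.24) and 10.08 to 10.30 in hApoF livers (median 10.24). Its log2 change was -0.02 (95% confidence interval -0.15 to 0.12, limma adjusted p = 0.917). Acly ran from 10.40 to 10.68 with GFP (median 10.50) and from 9.81 to 11.08 with hApoF (median 10.51). The means were 10.51 ± 0.11 (SD, n = 6) and 10.48 ± 0.42 (n = 6), and the change was -0.02 (interval -0.35 to 0.30, limma adjusted p = 0.950). For both citrate genes the groups overlapped, and a change of the size seen in Acss2 lies outside their intervals.

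The carboxylases Acaca and Acacb are paralogs that catalyse the same reaction. Acaca is cytosolic and feeds malonyl-CoA to the synthase, while Acacb sits at the outer mitochondrial membrane, where malonyl-CoA inhibits carnitine palmitoyltransferase. Acacb had values from 7.64 to 8.11 in GFP livers (median 7.82) and from 8.13 to 8.62 in hApoF livers (median 8.38), so the groups did not overlap, although hApoF 11 at 8.13 and GFP 5 at 8.11 came close. Its mean went from 7.84 ± 0.20 (SD, n = 6) to 8.40 ± 0.19 (n = 6), a 1.47-fold rise (log2 change 0.56, SE 0.11, limma adjusted p = 0.0043, exact permutation p = 0.0022). Acaca had values from 9.52 to 9.85 with GFP (median 9.67) and from 9.13 to 9.97 with hApoF (median 9.40). Of its hApoF samples 4 lay below every GFP sample and 1, hApoF 9, above every GFP sample. The log2 change of Acaca was -0.22 (interval -0.48 to 0.04, limma adjusted p = 0.323, exact permutation p = 0.134).

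Fasn, the multi-domain enzyme that assembles palmitate, had values from 10.30 to 10.57 in GFP livers (median 10.43) and from 9.83 to 11.09 in hApoF livers (median 10.61). Besides hApoF 9 at 11.09 and hApoF 11 at 9.83, the other hApoF samples lay between 10.50 and 10.62, at the upper end of the GFP range or just above it. The mean was 10.42 ± 0.10 (SD, n = 6) with GFP and 10.54 ± 0.41 (n = 6) with hApoF (log2 change 0.12, interval -0.20 to 0.44, limma adjusted p = 0.692). Without hApoF 9 the change was 0.01 and without hApoF 11 it was 0.26 (limma adjusted p = 0.976 and 0.151). Without both, a choice made after seeing the data, the change was 0.16 (SE 0.08, limma adjusted p = 0.283).

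Scd1, the desaturase that makes oleate and palmitoleate from the synthase's products, had values from 12.51 to 12.65 with GFP (median 12.59) and from 12.64 to 12.86 with hApoF (median 12.81), where 5 of 6 hApoF samples lay above all GFP samples. The log2 change was 0.18 (SE 0.06, interval 0.04 to 0.31), with an exact permutation p of 0.0065 for this gene alone and a limma adjusted p of 0.115, which missed the threshold. With trend and robust settings, or with genes dimmer than the median gene left out, the limma adjusted p was 0.027 and 0.043. With samples centred on their medians the change was 0.14 (limma adjusted p = 0.230), and quantile normalized again it was 0.12 (0.291). Across omissions of 1 array the limma adjusted p of Scd1 stayed between 0.088 and 0.224.

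Me1, the cytosolic malic enzyme that yields NADPH for the synthase, had values from 11.35 to 11.82 in GFP livers (median 11.70) and from 11.04 to 11.63 in hApoF livers (median 11.43). All 6 hApoF samples were below the GFP mean, yet the groups overlapped, since GFP 4 at 11.35 and GFP 5 at 11.54 lay within the hApoF range. The log2 change was -0.29 (SE 0.11, interval -0.51 to -0.06, limma adjusted p = 0.128, exact permutation p = 0.037 for this gene alone). When GFP 4 and hApoF 12 were both left out, the change was -0.40 and passed (limma adjusted p = 0.022), as it did with samples weighted by their quality (-0.34, limma adjusted p = 0.045).

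Thrsp (Spot 14), a small protein of lipogenic tissues that follows carbohydrate and thyroid hormone, had values from 10.72 to 11.47 with GFP (median 10.95) and from 10.63 to 11.58 with hApoF (median 10.94). Its log2 change was 0.04 (interval -0.31 to 0.39, limma adjusted p = 0.915), and the high samples were GFP 4, hApoF 9 and hApoF 10. Mlxipl, the glucose-responsive transcription factor ChREBP, had values from 9.64 to 10.01 with GFP (median 9.76) and from 9.27 to 9.80 with hApoF (median 9.56). In 4 of 6 hApoF samples Mlxipl was below every GFP sample (log2 change -0.23, SE 0.10, interval -0.44 to -0.03, limma adjusted p = 0.173, exact permutation p = 0.041 for this gene alone).

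**Figure D2:**
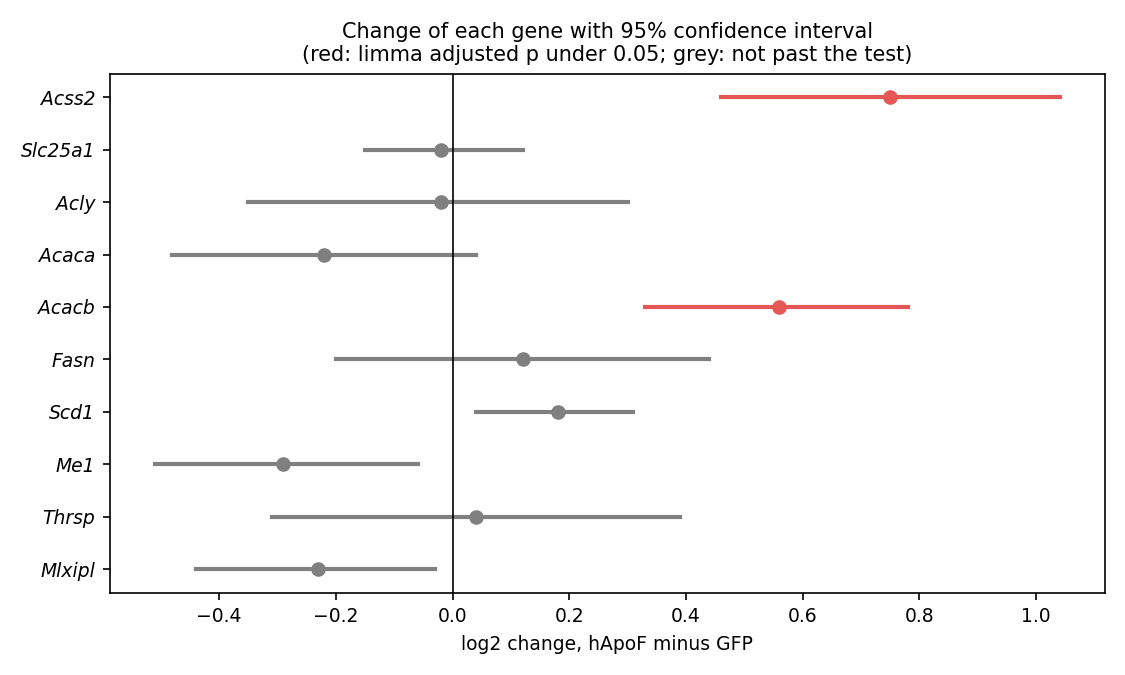
Log2 change of each gene (hApoF minus GFP, x axis) with its 95% confidence interval from the limma fit, 6 against 6 samples, in order along the pathway. Acss2 (0.75) and Acacb (0.56), drawn in red, passed the test, and the intervals of Scd1, Me1 and Mlxipl leave out 0 before adjustment over all genes.

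Whether neighbouring steps moved unequally was tested on the log2 ratio of a pair of genes within each sample. The level of such a ratio depends on the probes and has no meaning of its own, so only its difference between groups is read. Of 11 pairs, chosen with earlier results of these data known, 4 passed after adjustment over the pairs (exact permutation tests, two-sided). Each of these 4 has Acss2 or Acacb, which passed alone, as its first gene, so they are not independent of those calls. Acacb over Acaca was higher in hApoF livers by 0.78 (SE 0.13, exact permutation p = 0.0022, adjusted 0.0079), a 1.71-fold shift of the ratio, with no overlap between groups. The transcripts of the paralogous carboxylases changed unequally. Acss2 over Acly was also higher by 0.78 (SE 0.15) and Acss2 over Fasn by 0.63 (SE 0.12), both without overlap and with the same exact permutation p (0.0022, adjusted 0.0079). The transcripts for acetate use and for citrate cleavage changed unequally as well. Acacb over Fasn was higher by 0.44 (SE 0.14, exact permutation p = 0.0065, adjusted 0.018) with overlapping groups, and the adjusted value was 0.054 in the absence of GFP 1 or of GFP 3.

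The other pairs did not pass over all 12 samples. Me1 over Fasn was lower by a log2 ratio change of -0.41 (SE 0.18, exact permutation p = 0.045, adjusted 0.10), and this passed without GFP 4 (-0.48, adjusted exact permutation p = 0.048) or without hApoF 11 (-0.51, adjusted 0.040). Slc25a1 over Fasn (-0.14) also passed without hApoF 11 (-0.25, adjusted exact permutation p = 0.040). Scd1 over Fasn differed by 0.05 (SE 0.15) and Mlxipl over Srebf1 by -0.15 (SE 0.18). Thrsp over Mid1ip1, the gene of its paralog, differed by 0.32 (SE 0.17, adjusted exact permutation p = 0.179), and passed without hApoF 11 (0.42, adjusted 0.041). Mid1ip1 had 3 probe sets, with log2 changes of -0.28 for the brightest, -0.17 and 0.03, none past the test.

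**Figure D3:**
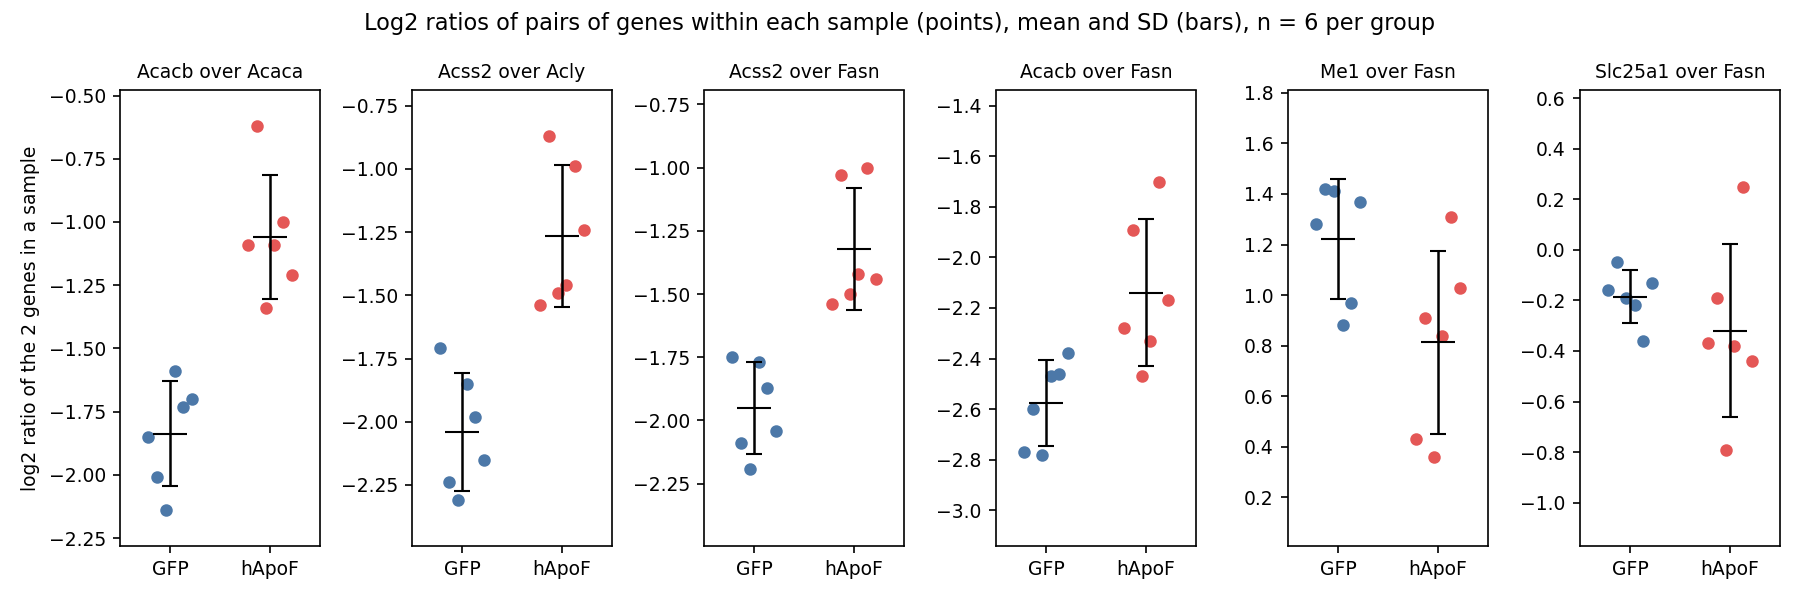
Log2 ratio of a pair of genes within each sample (y axis, a span of 1.8 in every panel) for 6 GFP and 6 hApoF livers (points), with the mean and SD of the group (bars). The ratios Acacb over Acaca, Acss2 over Acly and Acss2 over Fasn separate the groups, and the remaining ratios shown overlap.

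Over all 6 samples of each group, the hApoF livers differed among themselves in these genes more than the GFP livers did. The SD was larger with hApoF in 9 of the 10 genes, Acacb being the exception (0.20 with GFP, 0.19 with hApoF), and in 56.0% of all genes. The median ratio of the SDs, hApoF over GFP, was 1.66 for the 10 genes and 1.08 for all genes. It was largest for Acly (3.98) and Fasn (3.97), and the difference in spread was not tested. In both genes hApoF 9 was the highest and hApoF 11 the lowest hApoF sample. Much of the wider spread in these genes rests on them. Without hApoF 9 and hApoF 11 the hApoF SD was 0.16 for Acly (GFP 0.11) and 0.06 for Fasn (GFP 0.10). It was then below the GFP SD for Fasn, Acss2 and Acacb, and above it for the other genes of the set.

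These samples, singled out after their values were seen, lay at opposite ends for most of the pathway. Among the hApoF samples, hApoF 11 was the lowest in 8 of the 10 genes and in 14.6% of all genes, and hApoF 9 the highest in 6 of the 10 and in 16.9% of all. For Acly the difference between them was 2.42-fold, for Fasn 2.40-fold, for Thrsp 1.93-fold and for Acaca 1.79-fold. In each of these 4 genes hApoF 9 was the highest and hApoF 11 the lowest of all 12 samples. For Acss2 and Acacb, hApoF 11 was the lowest hApoF sample but ranked sixth of 12, still above all GFP samples. Me1 and Mlxipl departed from this order, with hApoF 7 the lowest in both. The mean log2 level of the hepatocyte markers was 12.61 in hApoF 9 and 12.59 in hApoF 11, within the hApoF range of 12.55 to 12.62. That of the Kupffer cell and macrophage markers was 7.93 and 7.55, within the hApoF range of 7.03 to 7.95. In every cell marker list the mean was higher in hApoF 9 than in hApoF 11. The part of cell composition in the difference between these samples was not tested.

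**Figure D4:**
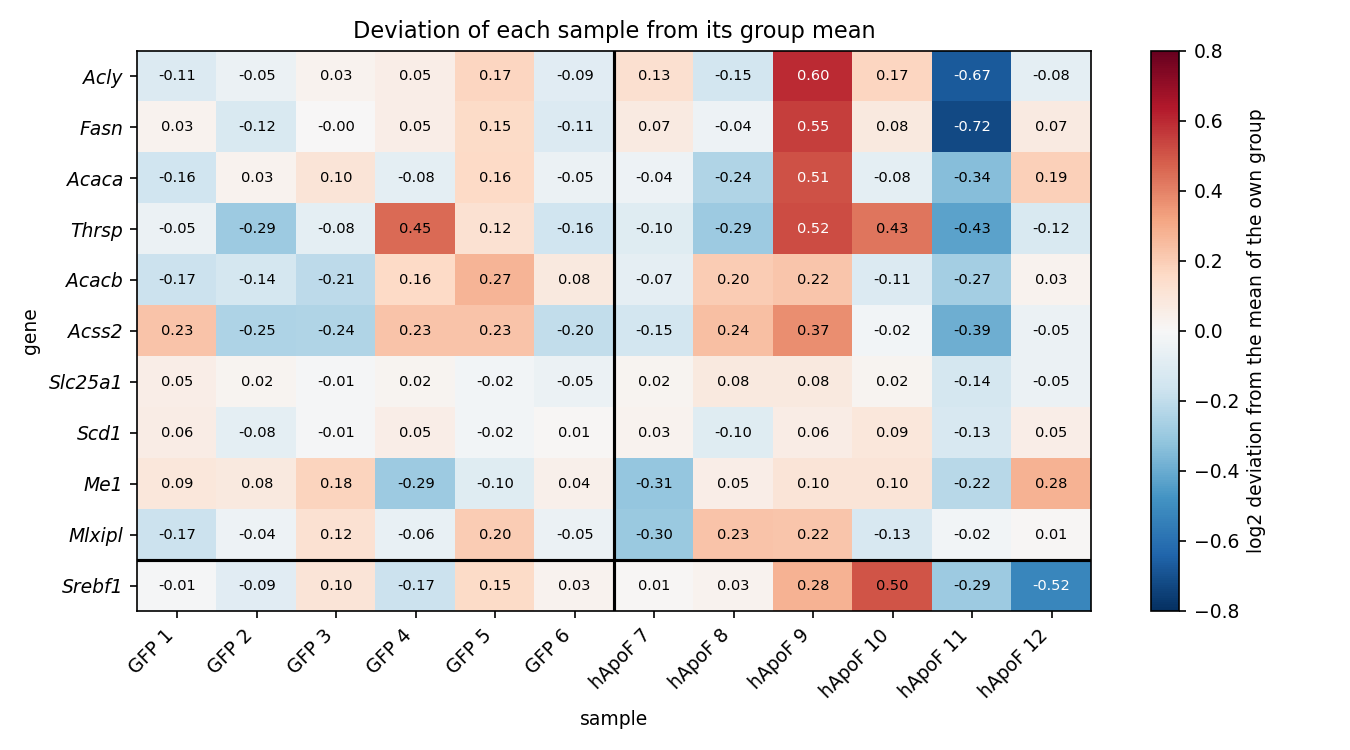
Deviation of each sample from the mean of its own group (colour and printed value, log2) for the 10 genes and Srebf1 (rows) in 12 samples (columns). Column hApoF 9 is mostly red (Fasn 0.55 above its group mean) and column hApoF 11 mostly blue (Fasn 0.72 below it), and the GFP columns are paler.

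Srebf1, whose protein SREBP-1c drives most of these genes, had values from 7.74 to 8.07 in GFP livers (median 7.92) and from 7.30 to 8.33 in hApoF livers (median 7.85). Its log2 change was -0.09 (interval -0.39 to 0.21, limma adjusted p = 0.772). The probe set does not separate the SREBP-1a and SREBP-1c transcripts, and cleavage of the protein was not measured. After removing group means, the correlation of Srebf1 with the 10 genes over 12 samples ran from 0.07 (Me1) to 0.61 (Acly), and none passed after adjustment over the 10 relations. For Acly, Pearson's r was 0.61 and Spearman's rho 0.62 (permutation p = 0.145 and 0.077, adjusted 0.717 and 0.484), and for Fasn 0.47 and 0.52 (permutation p = 0.287 and 0.106, adjusted 0.717 and 0.484). Within groups the Fasn correlation was 0.34 with GFP and 0.48 with hApoF (n = 6 each). Leaving out hApoF 10 and hApoF 12, the samples farthest from the Srebf1 median, gave r = 0.84 for Acly, 0.85 for Fasn and 0.48 for Thrsp (0.54 over all 12), and r was higher in 9 of the 10 relations. Leaving out hApoF 9 and hApoF 11 in their place, a choice made after seeing the data, gave 0.54 for Acly, 0.12 for Fasn and 0.37 for Thrsp. The size of these correlations therefore depends on which samples are included.

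Genes around the pathway were read from 7 lists, and genes of these lists not named under a single symbol were not analysed here. Beside the counts of these lists and of the cell markers, limma called 6.91% of all genes, 2.11% higher and 4.80% lower. Before adjustment 21.3% of all genes had a limma p under 0.05. Of 16 genes that control lipogenic transcription, 1 rose and 0 fell (limma, with 3 higher and 2 lower before adjustment). This share of 6.2% was near that of all genes, and the median log2 change was -0.04. The riser was Insig1, the SREBP target that retains the SREBP complex in the endoplasmic reticulum, from 10.41 ± 0.12 to 11.08 ± 0.20 (SD, n = 6 each), a log2 change of 0.67 (SE 0.09, limma adjusted p = 3.1e-04) with no overlap. The count of risers was 2 without GFP 4, hApoF 7 or hApoF 11, and 1 gene fell without GFP 4. In the list of NADPH supply 1 of 8 fell and 0 rose (limma; 0 higher and 2 lower before adjustment). It was Pgd, the second dehydrogenase of the pentose phosphate pathway, at 8.61 to 9.21 in GFP livers and 8.08 to 8.53 in hApoF livers. Pgd fell by 0.61 on the log2 scale (SE 0.11, limma adjusted p = 0.0030) without overlap, and the list had 2 lower genes without GFP 5. Idh1 and H6pd, which also make NADPH, had log2 changes of 0.03 and 0.13 and did not pass (limma adjusted p = 0.865 and 0.356).

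Among 16 genes of carboxylase control and malonyl-CoA use, 0 passed (limma; 0 higher and 3 lower before adjustment), with a median change of -0.01. The lowest p-values were those of Mid1ip1 (log2 change -0.28, limma adjusted p = 0.131) and Prkaa1, a catalytic subunit of the kinase AMPK that inactivates both carboxylases (-0.21, limma adjusted p = 0.153). Prkaa1 passed when GFP 4 was left out (limma adjusted p = 0.034) and when hApoF 12 was left out as well (0.0092). It also passed over all samples weighted by quality (-0.25, limma adjusted p = 0.046). Cpt1a, the carnitine palmitoyltransferase that malonyl-CoA inhibits, had a log2 change of 0.08 (limma adjusted p = 0.497), and Mlycd, which degrades malonyl-CoA, one of 0.03 (limma adjusted p = 0.871).

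Of 12 carbohydrate-responsive genes, many of them ChREBP targets, 2 fell and 0 rose (limma; 0 higher and 3 lower before adjustment), with a median change of -0.11. Both fallers act in fructose use: Khk, ketohexokinase, with a log2 change of -0.32 (SE 0.08, limma adjusted p = 0.024, no overlap), and Tkfc, triokinase, with -0.36 (SE 0.10, limma adjusted p = 0.043). Khk lost its call without GFP 2, GFP 3, GFP 5 or hApoF 10 (limma adjusted p up to 0.060), and Tkfc lost its call in every omission of 1 array other than that of hApoF 9 (up to 0.094). Pklr, the liver pyruvate kinase, had a log2 change of 0.05 (limma adjusted p = 0.858). In 19 genes of elongation and desaturation 3 rose and 1 fell, with a median of 0.01. They were Elovl5 (0.35, limma adjusted p = 0.037), Fads1 (0.30, 0.0495) and Acsl5 (0.30, 0.039), which act on polyunsaturated and long-chain acyl groups, and the faller Elovl1 (-0.29, 0.036). These calls were weak: with values quantile normalized again 0 rose and 0 fell, and with each sample centred on its median 1 rose. Among the omissions of 1 array, Fads1 kept its call only without hApoF 11, Acsl5 only without GFP 4 or hApoF 11, and Elovl5 only without GFP 1, GFP 4, hApoF 10 or hApoF 11 (limma adjusted p otherwise up to 0.094). Elovl1 lost its call without GFP 2, 3, 5 or 6 or hApoF 9, 10 or 12 (limma adjusted p up to 0.087).

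In the assembly of glycerolipids 1 of 11 genes rose and 1 fell, with a median change of 0.03. Dgat1, an acyltransferase of triglyceride synthesis, fell from 7.68 ± 0.13 to 7.21 ± 0.08 (SD, n = 6 each; log2 change -0.47, limma adjusted p = 8.5e-04, no overlap). Lpin2, a phosphatidate phosphatase, rose (0.29, limma adjusted p = 0.023). It no longer passed in the absence of GFP 3 or hApoF 10 (limma adjusted p = 0.059 and 0.053), with samples centred on their medians (0.057) and with the mean over its probe sets (0.087).

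Sterol synthesis shares its acetyl-CoA and the SREBP system with fatty acid synthesis. Of 17 measured genes 9 rose and 0 fell (limma; 13 higher and 0 lower before adjustment), with a median log2 change of 0.50. The difference from the fatty acid genes, whose median was 0.01, was not tested. Hsd17b7 (0.80, limma adjusted p = 0.0019), Tm7sf2 (0.51, 0.0023), Msmo1 (1.05, 0.0031) and Fdps (0.87, 0.0039) had the lowest p-values. Of the 17 genes 5, these 4 among them, did not overlap between groups, against 4.98% of all genes. Within the hApoF group the mean log2 level of the sterol list was highest in hApoF 7 (9.30) and hApoF 12 (9.16). It was lowest there in hApoF 11 (8.53) and hApoF 9 (8.64), still above the GFP range of 8.12 to 8.51. The fatty acid genes also had hApoF 11 as the lowest hApoF sample (9.97), but below the GFP range of 10.14 to 10.34. Their highest sample was hApoF 9 (10.63). The carbohydrate-responsive list had both of those extremes, with hApoF 9 at 9.82 and hApoF 11 at 9.25. Hmgcs1, the cytosolic synthase that commits acetyl-CoA to the mevalonate route, ran from 10.02 to 10.47 with GFP and from 10.01 to 11.68 with hApoF (log2 change 0.43, SE 0.23, limma adjusted p = 0.305). Over omissions of 1 array the Hmgcs1 change ran from 0.23 to 0.57 and did not pass (limma adjusted p from 0.141 to 0.520). It passed with hApoF 9 and hApoF 11 both left out (0.74, limma adjusted p = 0.049), a choice made after seeing the data that removes the lowest hApoF samples of this gene. Neither Acss2 over Hmgcs1 (difference 0.32, SE 0.32, adjusted exact permutation p = 0.473) nor Fasn over Hmgcs1 (-0.31, SE 0.29, adjusted 0.473) passed.

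**Figure D5:**
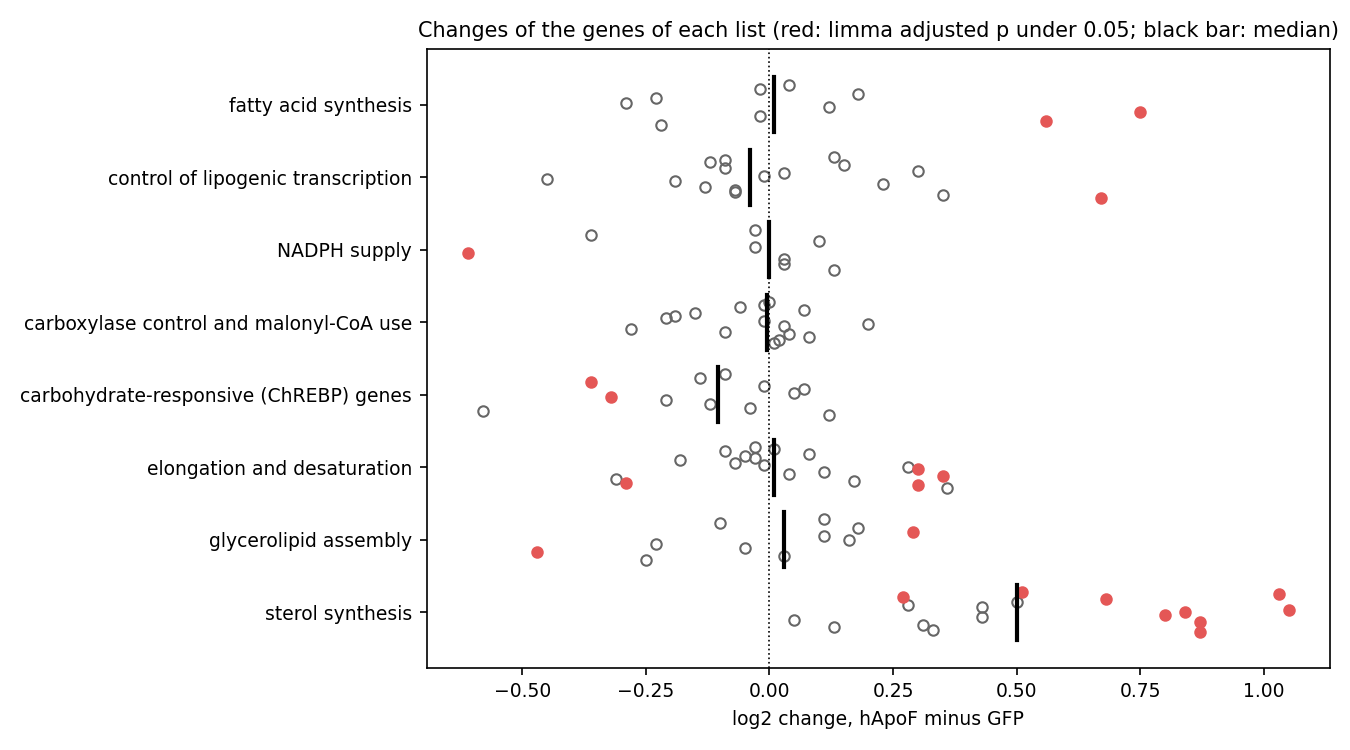
Log2 change (hApoF minus GFP, x axis) of each measured gene in the fatty acid synthesis set and 7 related lists (rows), with genes past the limma test in red and the list median as a black bar. The sterol synthesis median lies at 0.50 and all other medians lie between -0.11 and 0.03.

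Other cells of the liver could carry these transcripts, and in bulk tissue more cells of a type and more RNA per cell cannot be told apart. Adipocyte markers were low on average, with a list mean of 4.59 to 4.84 in GFP and 4.72 to 4.94 in hApoF samples. Array medians were 4.93 to 5.04, and 0 of 6 markers passed (limma, with 1 higher and 0 lower before adjustment). Adipoq had means of 4.27 and 4.46 and Lep 3.40 and 3.32. Fabp4 (6.62 and 6.76) and Retn (5.20 and 5.26) lay above the array medians, and the other measured markers of the list below them. Hepatocyte markers had list means of 12.37 to 12.53 with GFP and 12.55 to 12.62 with hApoF, ranges that did not overlap, with 1 of 10 genes higher (Hpd; 4 higher and 0 lower before adjustment in limma) and a median change of 0.11, and Alb changed by 0.06 (limma adjusted p = 0.576). The list means of Kupffer cell and macrophage markers ran from 6.49 to 7.75 and from 7.03 to 7.95 (2 of 9 higher, Clec4f and Vsig4, and 3 higher and 0 lower before adjustment in limma). Those of endothelial markers ran from 7.83 to 8.31 and from 8.14 to 8.45, with 1 of 8 higher (Kdr), 5 higher and 0 lower before adjustment, and a median change of 0.28. Those of stellate cell and fibroblast markers ran from 7.27 to 7.64 and from 7.45 to 7.76, with 2 of 8 higher (Dcn and Pdgfrb), 5 higher and 0 lower before adjustment, and a median change of 0.26. Bile duct markers had list means of 4.69 to 4.83 and 4.64 to 4.99 (0 of 5 past limma, 2 higher and 1 lower before adjustment). Lymphocyte markers had list means of 4.54 to 4.83 and 4.65 to 4.90 (0 of 7 past limma, 3 higher and 1 lower before adjustment). These list means lay near or below the array medians, although single markers lay higher, Sox9 the most (6.40 with GFP and 6.09 with hApoF). The part of the hepatocyte and non-parenchymal markers in the rises of Acss2 and Acacb was not tested. The spread of values over whole arrays differed between groups. Lower quartiles were 3.741 to 3.796 in hApoF arrays and 3.659 to 3.718 in the GFP arrays other than GFP 4. Upper quartiles were 6.668 to 6.726 and 6.734 to 6.814 in the same arrays. In its quartiles (3.798 and 6.673) GFP 4 resembled the hApoF arrays more than the other GFP arrays. Acss2 and Acacb passed with GFP 4 and hApoF 12 both left out and in each omission of 1 array, with limma adjusted p up to 0.0095 and 0.014 among the latter.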

How the data were processed

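Liver RNA of 12 samples, 6 GFP and 6 hApoF, was read on 1 array each. The deposited log2 values per probe set were made by the authors with oligo and RMA, per the submitters' processing notes. Neither versions nor a genome build are stated in the labels used here. Array medians lay between 4.93 and 5.04. Of 35145 probe sets, 23521 had 1 gene symbol in the supplied platform annotation, 1814 had several and 9810 none listed. The brightest probe set stood for each of 22180 genes. Groups were taken from sample titles.

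hApoF was compared with GFP in limma 3.58.1 (R 4.3.3; lmFit, eBayes, no covariates), adjusted over all genes by Benjamini-Hochberg at 0.05. SE and 95% intervals are the fit's. Single genes and within-sample ratios had exact two-sided permutation tests over 924 assignments, and correlations 100000 permutations within groups. The SE of a ratio is from the pooled SD.

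The genes, lists, pairs and alternatives were chosen with earlier results of these data known. Named genes are the 10 genes, Srebf1, Mid1ip1, the genes of the pairs and up to 4 called genes per related list with the lowest p (at most 2 where none passed). Cpt1a, Mlycd, Idh1, H6pd, Alb, Lep, Fabp4, Retn and Sox9, and Pklr in its list, were chosen after their values were seen. Promoter windows came from RefSeq (GRCm38.p6). Alternatives covered scaling, fit settings, filters, probe set choice and omitted samples.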

Additional observations from a re-analysis of the deposited data

How the results depend on the processing

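The rises of Acss2 and Acacb passed under all 21 alternatives run, which included each omission of 1 array. The number of lower fatty acid genes, 0 over all samples, was 1 with samples weighted by quality and 1 without GFP 4 and hApoF 12 together, the gene being Me1 in both. Scd1 passed under 2 alternatives, 1 fit setting and 1 filter on dim genes. Over omissions of 1 array, the change in the log2 ratio ran from 0.35 to 0.50 for Acacb over Fasn, from -0.51 to -0.32 (-0.52 without GFP 4 and hApoF 12 together) for Me1 over Fasn, from -0.25 to -0.04 for Slc25a1 over Fasn and from 0.25 to 0.42 for Thrsp over Mid1ip1, and each of these crossed the threshold in at least 1 omission. Without GFP 4 and hApoF 12 together, Acacb over Fasn was 0.46 and no longer passed (exact permutation, adjusted p = 0.052), and the correlation of Srebf1 with Thrsp was 0.90 and passed (permutation, adjusted p = 0.043), against 0.54 over all samples and 0.37 without hApoF 9 and 11. The other 7 ratios and 9 correlations kept their side of the threshold under all alternatives run. Where the cause of a shift is not the number of samples or genes tested, the cause was not tested. The number of all genes higher in hApoF was 469 over all samples and ran from 254 to 653 over omissions of 1 array, with 252 without hApoF 9 and 11 and 703 without GFP 4 and hApoF 12. No paired analysis was possible because the groups share no replicate number.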

Other observations

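The genes whose variation among livers given the same virus was most like that of Fasn were looked for over the 12 group-centred samples, by Pearson's r alone and as a description. Predicted genes, those with Gm-number or Rik symbols, were left out of this search. Among the remaining genes outside the 10, the highest value was that of Pklr, the liver pyruvate kinase, with r = 0.91. Its log2 level was 10.80 with GFP and 10.85 with hApoF. It was followed by Serpinb2 (0.91), Rpl11 (0.90), Htr2c (0.90) and Chrm1 (0.90), whose probe sets had mean log2 values between 2.72 and 5.49, against array medians of 4.93 to 5.04. Among the 10 genes themselves, r with Fasn was 0.96 for Acly, 0.80 for Acaca, 0.73 for Thrsp and Slc25a1, 0.72 for Acss2, 0.68 for Scd1 and 0.61 for Acacb, against 0.29 for Me1 and 0.25 for Mlxipl. These values share the samples hApoF 9 and hApoF 11, which lie at opposite ends for most of these genes. Srebf1 had r = 0.47 and Hmgcs1 r = 0.20 with Fasn.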
